A study of Rattus norvegicus with 138 samples.

Results

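Genes of the bone morphogenetic protein (BMP) pathway were followed through volumetric muscle loss (VML): the ligands Bmp2, Bmp4 and Bmp6, the secreted antagonists Grem1 and Nog, the intracellular inhibitor Smad6, and the inhibitor of differentiation genes Id1, Id2, Id3 and Id4. These 10 genes were taken by symbol from a table of 16181 gene symbols, and all 10 were among the 11328 genes with a mean above 1 TPM (a length-corrected transcript abundance) in at least 1 group. TPM is scaled to a fixed total per library, so that a value is a share of the transcripts of that library.

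The data were whole-muscle RNA-Seq profiles of the tibialis anterior (TA) of male Lewis rats of about 4 months of age, an inbred strain. A full-thickness defect was punched from the middle of the TA of one leg, and the other leg of the same rat supplied the contralateral muscle. After quality filtering, 114 muscles of 78 rats remained, and both muscles remained for 34 rats. They were taken at 3, 7, 14 and 28 days post injury (DPI).

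Control muscle was the left and right TA of 2 rats labelled as sham at day 0, which gave 4 muscles. The study calls its controls unoperated. Non-repaired injured muscle of non-running rats comprised 3, 8, 4 and 4 muscles at 3, 7, 14 and 28 DPI. Repaired muscle received an autologous minced muscle graft, small pieces cut from the excised tissue, and comprised 7, 8, 4 and 4 muscles on those days. Running rats, whose exercise the labels do not describe further, gave 8, 4, 4 and 2 non-repaired and 6, 4, 4 and 2 grafted injured muscles. Contralateral muscle comprised 22 muscles of non-running and 12 of running rats, with no running muscle at 28 DPI. The control rats belonged to another numbered series of rats than all operated rats, so injury and rat series cannot be told apart in comparisons with control.

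BMP ligands bind paired serine/threonine kinase receptors that phosphorylate Smad1, Smad5 and Smad9, which enter the nucleus with Smad4 and turn on targets such as the Id genes and the feedback inhibitor Smad6. Noggin and Gremlin 1 bind the ligands outside the cell and keep them from the receptors. Id proteins lack a DNA-binding region and sequester E-proteins, the partners that MyoD and other myogenic factors need, and are known for holding muscle progenitors in an undifferentiated, dividing state.

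On the log2(TPM + 1) scale Id2 changed most among the 10 genes on each day after injury, followed by Id3 at 3 and 7 DPI, and both were called against both uninjured references to 28 DPI. After rescaling by size factors Id2 kept these calls, while Id3 kept them at 3 and 7 DPI only. Mean Id2 was 16.9 times the control mean at 3 DPI and 5.22 times at 28 DPI, and mean Id3 was 7.24 and 2.44 times. In whole muscle, more cells of a type and more RNA per cell cannot be told apart. Bmp2, below 1 TPM in each control muscle, was also higher on every day, and Id4 reached its plateau at 7 DPI. Over both references Bmp2 was called in 8 of 8 comparisons and Id4 in 6. With size factors Bmp2 was called in 4, those at 3 and 28 DPI, and Id4 in 0. Bmp4 was higher than in control muscle but was raised in the uninjured leg as well. Smad6, Bmp6 and Id1 passed the test on at most 1 day against either reference, and grafting and running moved none of the 10 genes past the test.

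Throughout, a gene was called higher or lower at an adjusted p under 0.05 (limma with Benjamini-Hochberg adjustment over 11328 genes) and a change beyond 1 on the log2(TPM + 1) scale, which understates the change of genes near or below 1 TPM. The adjusted p values below all come from that limma model of 114 muscles. Where groups are said not to overlap, the share of all genes without overlap was not computed. The depth of each library is not given in the sources used here, and the spread between muscles is the only error given.

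The promoters of Id2 and Id3, the 2 Id genes called on every day, are shown with that of Id1, the best-known target of the pathway, and that of Grem1, the member with both Smad motifs searched for. Each is a window of 200 bases, from 250 to 51 bases before the gene start, printed 5′ to 3′ on the gene's own strand from RefSeq on build GRCr8. Capitals mark GGCGCC, the core of BMP-responsive elements, and GTCT, the Smad box, on either strand. The windows are chr3:161671314-161671513 on the plus strand for Id1, chr6:47471046-47471245 on the minus strand for Id2, chr5:153656041-153656240 on the plus strand for Id3, and chr3:120978370-120978569 on the minus strand for Grem1.
Id1: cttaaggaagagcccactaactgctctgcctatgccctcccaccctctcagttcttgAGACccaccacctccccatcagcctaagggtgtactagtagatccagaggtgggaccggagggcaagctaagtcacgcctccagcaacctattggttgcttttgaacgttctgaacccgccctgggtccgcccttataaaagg
Id2: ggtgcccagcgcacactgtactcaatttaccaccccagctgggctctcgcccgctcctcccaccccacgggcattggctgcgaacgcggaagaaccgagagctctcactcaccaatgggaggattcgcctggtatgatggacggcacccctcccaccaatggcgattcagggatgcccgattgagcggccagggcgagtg
Id3: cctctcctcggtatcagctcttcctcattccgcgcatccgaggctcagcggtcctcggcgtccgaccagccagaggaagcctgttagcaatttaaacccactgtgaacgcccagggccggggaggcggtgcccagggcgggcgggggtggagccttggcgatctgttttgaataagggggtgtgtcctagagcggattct
Grem1: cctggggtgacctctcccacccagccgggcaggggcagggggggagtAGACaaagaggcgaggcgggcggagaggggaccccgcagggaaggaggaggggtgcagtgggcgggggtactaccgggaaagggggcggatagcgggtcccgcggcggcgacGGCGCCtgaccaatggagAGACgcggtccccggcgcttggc

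Of the 8 members with a promoter in the table, 1 held the BMP-element core, Grem1, where the match began 91 bases before the start. Across 33469 promoters of the same length, 6.56% held it. The Smad box was present in 5 of the 8 members (Bmp4, Grem1, Nog, Id1 and Id4) and in 77.6% of all promoters, and the E-box CANNTG was present in 2 of the 8 (Bmp4 and Id2) and in 57.9% of all promoters. The motifs were searched on both strands, and the Smad motifs did not overlap in the windows shown. The letters of either Smad motif were not found in the Id2, Id3 and Bmp6 windows, which says nothing about bases outside them. A promoter was not found here for Bmp2 and Smad6.

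Id2 was 2.84, 4.72, 4.30 and 1.41 TPM in the 4 control muscles, and 73.89, 53.17 and 41.29 TPM in the 3 non-repaired injured muscles at 3 DPI. At 7 DPI the 8 injured muscles ran from 21.54 to 50.40 TPM with a median of 38.1, at 14 DPI the values were 22.39, 19.33, 22.57 and 22.25 TPM, and at 28 DPI they were 15.47, 15.80, 16.47 and 21.56 TPM. Every injured muscle lay above every control muscle on each day, and the injured levels at 3 DPI did not overlap those at 14 or 28 DPI. The change against control was 3.76 ± 0.23 (SE; log2 scale; adjusted p = 6.1e-27) at 3 DPI, 3.16 ± 0.19 (adjusted p = 2.96e-28) at 7 DPI, 2.46 ± 0.21 (adjusted p = 1e-17) at 14 DPI and 2.15 ± 0.21 (adjusted p = 1.03e-14) at 28 DPI. From 3 to 28 DPI Id2 fell by 1.61 ± 0.23 (adjusted p = 2.46e-09). Of all tested genes, 4.90% had a larger rise than Id2 at 3 DPI and 3.62% at 28 DPI.

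Id3 started from a higher level than Id2. Control muscles held 19.77, 20.90, 20.78 and 9.77 TPM, and the 3 injured muscles at 3 DPI held 161.77, 130.87 and 94.00 TPM. Injured muscle ran from 65.41 to 130.69 TPM (median 103.7, 8 muscles) at 7 DPI, and measured 46.43, 45.62, 54.01 and 54.47 TPM at 14 DPI and 37.61, 41.38, 49.08 and 45.84 TPM at 28 DPI. Injured and control muscles did not overlap on any day. In order of day the change was 2.81 ± 0.21 (adjusted p = 3.65e-22), 2.41 ± 0.17, 1.5 ± 0.19 and 1.29 ± 0.19 (adjusted p = 1.33e-08), and the fall from 3 to 28 DPI was also past the test, -1.52 ± 0.21 (adjusted p = 6.9e-10).

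Id4, the member best known from the nervous system, had another time course. Control muscles held 3.02, 2.85, 3.76 and 1.34 TPM, injured muscles 7.62, 5.98 and 5.31 TPM at 3 DPI and 8.62 to 12.45 TPM (median 9.65, 8 muscles) at 7 DPI. At 14 DPI the values were 8.30, 7.00, 9.91 and 8.16 TPM and at 28 DPI 6.76, 6.34, 11.18 and 9.39 TPM. The injured and control groups did not overlap on any day. Id4 was called at 7 DPI (1.59 ± 0.15, adjusted p = 3.51e-17), 14 DPI (1.36 ± 0.17) and 28 DPI (1.35 ± 0.17), and its value of 1.00 ± 0.18 at 3 DPI lay just under the fold limit. Leaving out any of 5 of the 7 muscles of that comparison in turn carried it over the limit, to at most 1.13.

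Id1, the best-known BMP target, was abundant before injury. It was 40.57, 34.76, 28.16 and 20.04 TPM in control muscle and 61.13, 62.03 and 49.95 TPM in injured muscle at 3 DPI. Levels were 35.51 to 71.37 TPM (median 46.3, 8 muscles) at 7 DPI, then 41.18, 30.52, 31.27 and 27.15 TPM at 14 DPI and 44.68, 28.88, 30.77 and 27.47 TPM at 28 DPI. The groups were apart at 3 DPI and overlapped from 7 DPI on. Its change of 0.92 ± 0.25 at 3 DPI (adjusted p = 5.06e-04) and 0.62 ± 0.20 at 7 DPI was under the fold limit, and at 14 and 28 DPI it was 0.10 ± 0.23 and 0.11 ± 0.23. Without injured replicate 3 or control replicate 1, the 3 DPI change was 1.02 or 1.06 and passed the test.

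**Figure D1:**
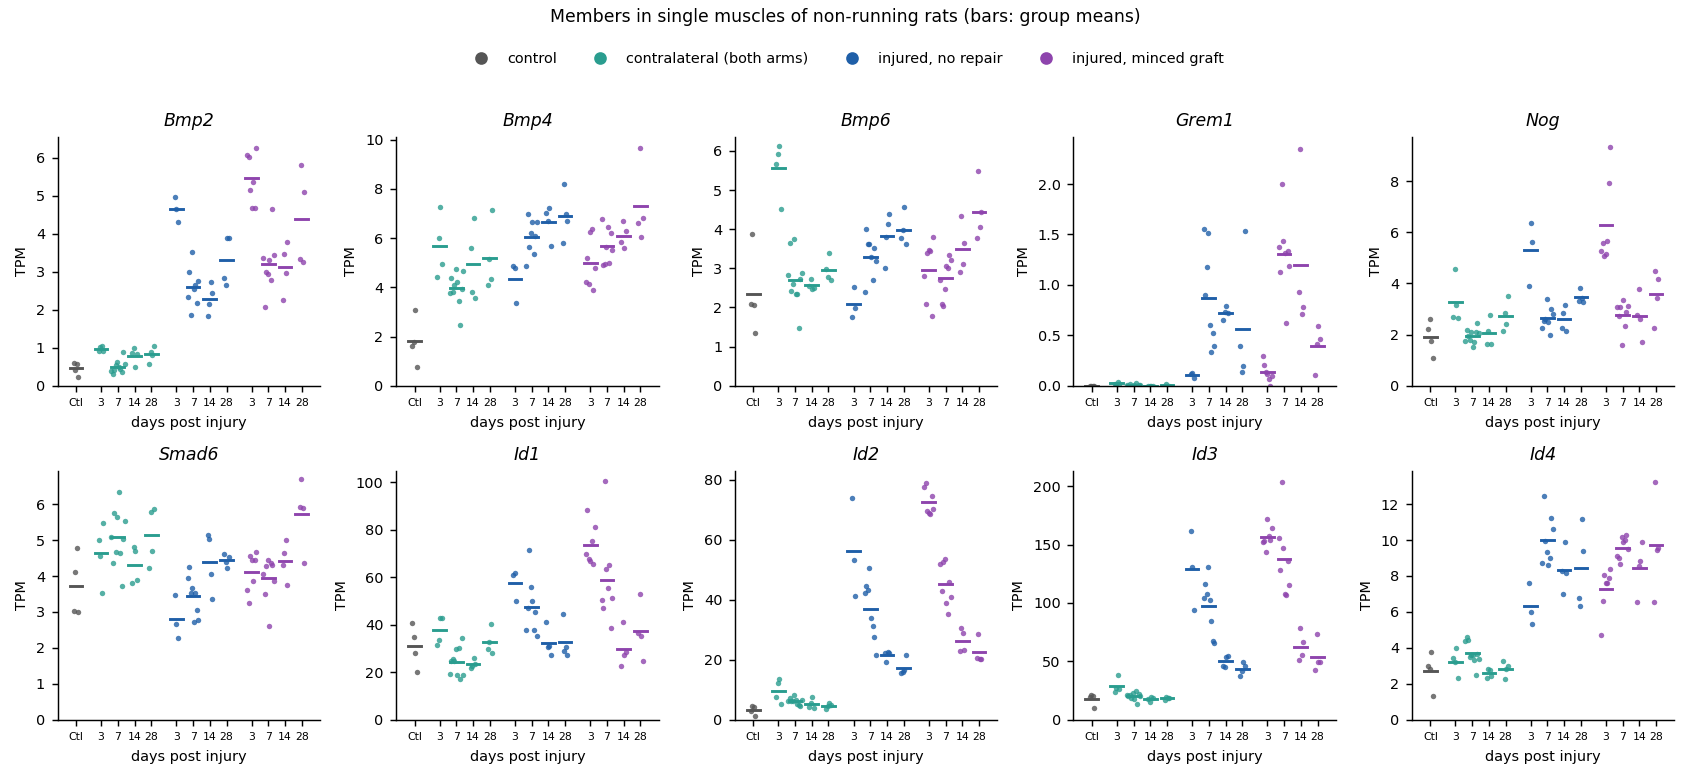
TPM (linear axis) of the 10 genes in each muscle of non-running rats by days post injury; points are muscles and bars are group means, for control, contralateral (both arms), non-repaired and minced-graft muscle. Id2, Id3, Id4 and Bmp2 of injured muscle lie above all control muscles, and the graft and non-repaired points lie side by side.

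Among the ligands, Bmp2, an inducer of bone and cartilage formation, was at 0.61, 0.41, 0.57 and 0.24 TPM in control muscle. It rose to 4.97, 4.66 and 4.31 TPM at 3 DPI, and ran from 1.87 to 3.51 TPM (median 2.59, 8 muscles) at 7 DPI. Later values were 1.83, 2.16, 2.74 and 2.45 TPM at 14 DPI and 2.83, 2.66, 3.89 and 3.88 TPM at 28 DPI. Injured and control muscles did not overlap on any day, and the 3 DPI muscles were above all later non-repaired muscles. The changes were 1.96 ± 0.16 (adjusted p = 1.76e-20), 1.30 ± 0.13, 1.18 ± 0.14 and 1.56 ± 0.14 (adjusted p = 5.31e-16) in order of day. The value at 7 DPI was 0.66 ± 0.14 below that at 3 DPI (adjusted p = 6.87e-05), a difference under the fold limit.

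Bmp4, a ligand close in sequence to Bmp2, was at 1.61, 1.76, 3.08 and 0.75 TPM in control muscle. Injured muscle held 4.85, 4.77 and 3.36 TPM at 3 DPI, 4.88 to 7.00 TPM (median 6.15, 8 muscles) at 7 DPI, 7.04, 6.70, 7.21 and 5.68 TPM at 14 DPI, and 5.81, 8.19, 6.98 and 6.70 TPM at 28 DPI. No injured muscle was as low as a control muscle. Bmp4 was 0.98 ± 0.19 above control at 3 DPI, just under the fold limit, and was called at 7 DPI (1.39 ± 0.15), 14 DPI (1.51 ± 0.18) and 28 DPI (1.56 ± 0.18, adjusted p = 1.72e-12). Without control replicate 3, its change at 3 DPI was 1.18, past the test, and without injured replicate 3 it was 1.12.

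Bmp6, which also controls hepcidin in iron balance, was not called against control. It was 2.10, 3.88, 2.06 and 1.35 TPM in control muscle, 1.75, 2.53 and 1.99 TPM in injured muscle at 3 DPI, and 3.77, 3.99, 4.58 and 3.61 TPM at 28 DPI. The groups overlapped on all 4 days. Its changes ran from -0.07 ± 0.17 at 3 DPI (95% confidence interval -0.42 to 0.27) to 0.62 ± 0.16 at 28 DPI (adjusted p = 4.11e-04).

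Of the antagonists, Grem1 was listed at 0 in all 4 control muscles. Non-repaired injured muscle held 0.12, 0.13 and 0.08 TPM at 3 DPI, 0.33 to 1.55 TPM (median 0.75, 8 muscles) at 7 DPI, 0.65, 0.73, 0.79 and 0.72 TPM at 14 DPI, and 0.39, 0.14, 0.20 and 1.53 TPM at 28 DPI. No injured muscle of these groups was at 0, but levels this low lie near the pseudocount, which sets the size of the fitted change. With 1 TPM added it was 0.86 ± 0.16 at 7 DPI, under the fold limit, and with 0.1 TPM added it was 3.11, past the test. Over the 8 comparisons of injured muscle with control or contralateral muscle, Grem1 was called in 1 with 1 TPM added and in 7 with 0.1 TPM added. At 28 DPI, 1 muscle at 1.53 TPM stood apart from the other 3.

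Nog was highest at 3 DPI. Control muscles held 2.20, 2.60, 1.76 and 1.07 TPM and injured muscles 3.90, 6.36 and 5.60 TPM at 3 DPI. The 8 muscles at 7 DPI ran from 1.97 to 3.38 TPM (median 2.58) and the muscles at 28 DPI held 3.31, 3.82, 3.42 and 3.29 TPM. Injured and control muscles were apart at 3 and 28 DPI and overlapped at 7 and 14 DPI. Nog was called at 3 DPI (1.12 ± 0.26, adjusted p = 4.67e-05), and the call was lost without control replicate 4 (0.97) or injured replicate 2 (1.0, just under the limit). At 28 DPI its change was 0.65 ± 0.24 (adjusted p = 0.0122).

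Smad6, the inhibitory Smad, was 3.03, 4.12, 4.78 and 3.01 TPM in control muscle, 3.47, 2.67 and 2.28 TPM at 3 DPI, and 4.62, 4.40, 4.21 and 4.53 TPM at 28 DPI. Groups overlapped on every day. Changes against control in order of day were -0.31 ± 0.17 (adjusted p = 0.0795), -0.09 ± 0.13, 0.19 ± 0.16 and 0.22 ± 0.16.

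Against control, 4 of the 10 genes were called higher at 3 DPI (Bmp2, Nog, Id2 and Id3), where 48.3% of all tested genes were called higher. That count was 7 without non-repaired replicate 3 and also 7 with a pseudocount of 0.1. At 7 DPI 5 were called (Bmp2, Bmp4, Id2, Id3 and Id4; 45.6% of all genes), and those 5 were called again at 14 DPI (25%) and 28 DPI (21.1%). None was called lower. The share of members called was near that of all genes at 3 and 7 DPI. The median change over the 10 genes was 0.99, 1.08, 0.98 and 0.97 in order of day, beside 0.96, 0.91, 0.53 and 0.52 over all tested genes.

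The shift of all genes depended on the scaling. After median-of-ratios size factors were applied to TPM, the all-gene median was 0.09, 0.08, 0.02 and 0.04, and of the called genes 59.2, 60.6, 72.8 and 78.4% were higher, in place of 91.9, 95, 97.9 and 99% with TPM as deposited. On that scale Id2 was called on all 4 days, at 2.80, 2.26, 1.95 and 1.65, and Id3 at 3 and 7 DPI, at 1.70 and 1.36, with 0.84 and 0.65 at 14 and 28 DPI. Bmp2 was called at 3 and 28 DPI (1.39 and 1.36) and Bmp4 at 14 and 28 DPI (1.09 and 1.15). Id4 was not called on that scale, with 0.11, 0.73, 0.85 and 0.86, and Nog was 0.29 at 3 DPI. The values of Id1 changed sign, to -0.20, -0.44, -0.57 and -0.55, and Smad6 was called lower at 3 DPI (-1.21, adjusted p = 4.64e-10).

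**Figure D2:**
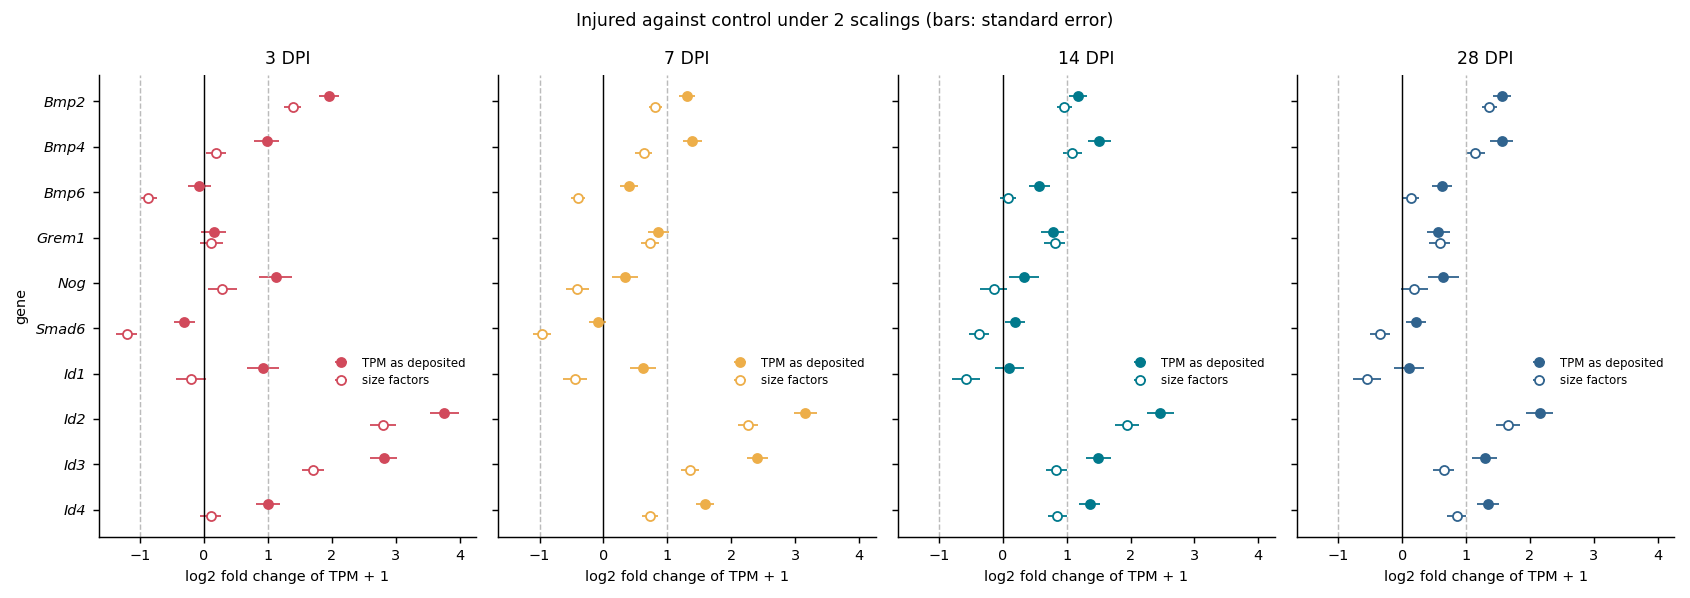
Change of each of the 10 genes in non-repaired injured muscle against control, on the log2(TPM + 1) scale, at 3, 7, 14 and 28 DPI; filled points use TPM as deposited, open points TPM divided by size factors, bars are standard errors and dashed lines mark the fold limit of 1. Nearly all open points lie to the left of the filled ones, Id2 stays beyond 1 in each panel, and Id1 crosses 0.

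Cell type markers moved alongside. Against control, 8 of 8 fibroblast and 8 of 8 macrophage markers were called higher on each day, and 10, 6, 2 and 1 of 10 muscle fibre markers were called lower in order of day. Summed macrophage markers were 20.7 to 42.8 TPM in control muscle, 4595 to 5966 TPM at 3 DPI and 276.8 to 834.4 TPM at 28 DPI, and summed fibroblast markers were 77.7 to 245.7, 4287 to 7356 and 2337 to 3509 TPM. Summed fibre markers were 214000 to 269700 TPM in control muscle, 45370 to 60690 TPM at 3 DPI and 177100 to 206400 TPM at 28 DPI, and none of the fibre, endothelial, fibroblast or macrophage markers was at 0 in control muscle. Endothelial markers were called higher for 5, 6, 4 and 2 of 9 in order of day, smooth muscle and pericyte markers for 3, 5, 4 and 2 of 6. Of all tested genes, 48.3, 45.6, 25 and 21.1% were called higher on those days. Both lists at 3 DPI and the endothelial list at 28 DPI were near that share. At 3 DPI, 3 of 4 tested satellite cell markers, 2 of 2 tendon markers and 1 of 3 Schwann cell markers were called higher, and 1 satellite cell marker was called lower. At 28 DPI, 2 of 4, 1 of 2 and 3 of 3 of these markers were called higher. The part of these shifts in the changes of the 10 genes was not tested.

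The contralateral muscle gave a second reference from the same series of rats, and for part of the injured muscles from the same rat. Against it, Bmp2, Id2 and Id3 were called higher at 3 DPI (34.8% of all genes were), 6 of 10 at 7 DPI (Bmp2, Grem1, Id1, Id2, Id3 and Id4; 43.8%), and Bmp2, Id2, Id3 and Id4 at 14 DPI (23.4%) and 28 DPI (16%). None was called lower. With size factors Id2 kept its call on all 4 days, Id3 at 3 and 7 DPI (0.95 and 0.82 at 14 and 28 DPI) and Bmp2 at 3 and 28 DPI (0.83 and 0.69 at 7 and 14 DPI), and Id4 was not called (0.34, 0.36, 0.85 and 0.95 in order of day). In these comparisons injured muscle of both arms, non-repaired and grafted, was set against contralateral muscle of both arms in non-running rats, without pairing the legs. Each arm held 2 contralateral muscles at 3, 14 and 28 DPI. At 7 DPI there were 4 in the non-repaired and 6 in the grafted arm.

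Id2 in the 22 contralateral muscles of non-running rats ran from 3.48 to 13.69 TPM with a median of 5.91, below every injured muscle, of which the lowest was 15.47 TPM. Its change was 2.66 ± 0.18, 2.55 ± 0.12, 1.99 ± 0.19 and 1.88 ± 0.19 in order of day (largest adjusted p = 7.45e-15). Id3 ran from 13.85 to 37.97 TPM (median 19.9) in contralateral muscle, and its change was 2.26 ± 0.17, 2.43 ± 0.11, 1.61 ± 0.17 and 1.33 ± 0.17. The highest contralateral Id3 value, at 3 DPI, reached into the injured range at 28 DPI, where injured muscles of non-running rats began at 37.61 TPM, but not into that of its own day. Id4 ran from 2.27 to 4.62 TPM (median 3.29), and its change was 0.87 ± 0.15, 1.23 ± 0.10, 1.38 ± 0.15 and 1.36 ± 0.15. Bmp2 was at 0.32 to 1.05 TPM (median 0.72), and its change was 1.61 ± 0.12, 1.35 ± 0.08, 1.04 ± 0.13 and 1.38 ± 0.13. The Bmp2 call at 14 DPI was lost without contralateral non-repaired replicate 1 (0.96) or grafted replicate 4 (1.0, just under the limit), and that of Id4 at 3 DPI was gained without contralateral non-repaired replicate 1 (1.02).

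Id1 was called against contralateral muscle at 7 DPI (1.07 ± 0.13, adjusted p = 4.83e-12) but had 0.78 ± 0.20 at 3 DPI, 0.38 ± 0.20 at 14 DPI and 0.07 ± 0.20 at 28 DPI. Its contralateral level moved as well: over all contralateral muscles the medians were 33.9, 25.9, 20.5 and 31.4 TPM in order of day, a difference between days that was not tested. The 7 DPI call was lost without 1 contralateral muscle (0.99, non-repaired replicate 4), and on the size factor scale the value was 0.08. Grem1 was at 0.00 to 0.04 TPM in the contralateral muscles of non-running rats, and its value of 1.01 ± 0.10 at 7 DPI was at the fold limit and fell under it when any of 4 injured muscles was left out, with 0.98 as the lowest.

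Bmp6 went in the opposite direction at 3 DPI. The contralateral muscles of non-running rats held 5.67 and 5.92 TPM in the graft arm and 6.12 and 4.51 TPM in the non-repaired arm on that day, against 1.47 to 3.74 TPM at later days. Injured muscle at 3 DPI held 1.75 to 2.53 TPM without repair and 1.77 to 3.79 TPM with a graft, so that the legs did not overlap in rats that did not run, with 2 contralateral muscles per arm. The change was -0.92 ± 0.14 (adjusted p = 4.81e-09), within the fold limit, but -1.01 and past the test without contralateral non-repaired replicate 2, and -1.38 on the size factor scale, past the test. Running rats at 3 DPI had lower contralateral values, from 3.06 to 4.52 TPM, which overlapped their injured muscle.

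Smad6 was lower in injured than in contralateral muscle by 0.35 ± 0.13 at 3 DPI (adjusted p = 0.0127) and 0.36 ± 0.09 at 7 DPI (adjusted p = 1.29e-04), neither past the fold limit. On the size factor scale the 7 DPI value was -1.21 and passed it. Bmp4 had -0.24 ± 0.15, 0.49 ± 0.10, 0.34 ± 0.15 and 0.40 ± 0.15 in order of day, none past the fold limit. The 3 positive values became -0.35, -0.24 and -0.06 with size factors. Nog had 0.66 ± 0.20 at 3 DPI and 0.31, 0.26 and 0.28 on later days, which became -0.42, -0.23 and -0.13 with size factors.

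**Figure D3:**
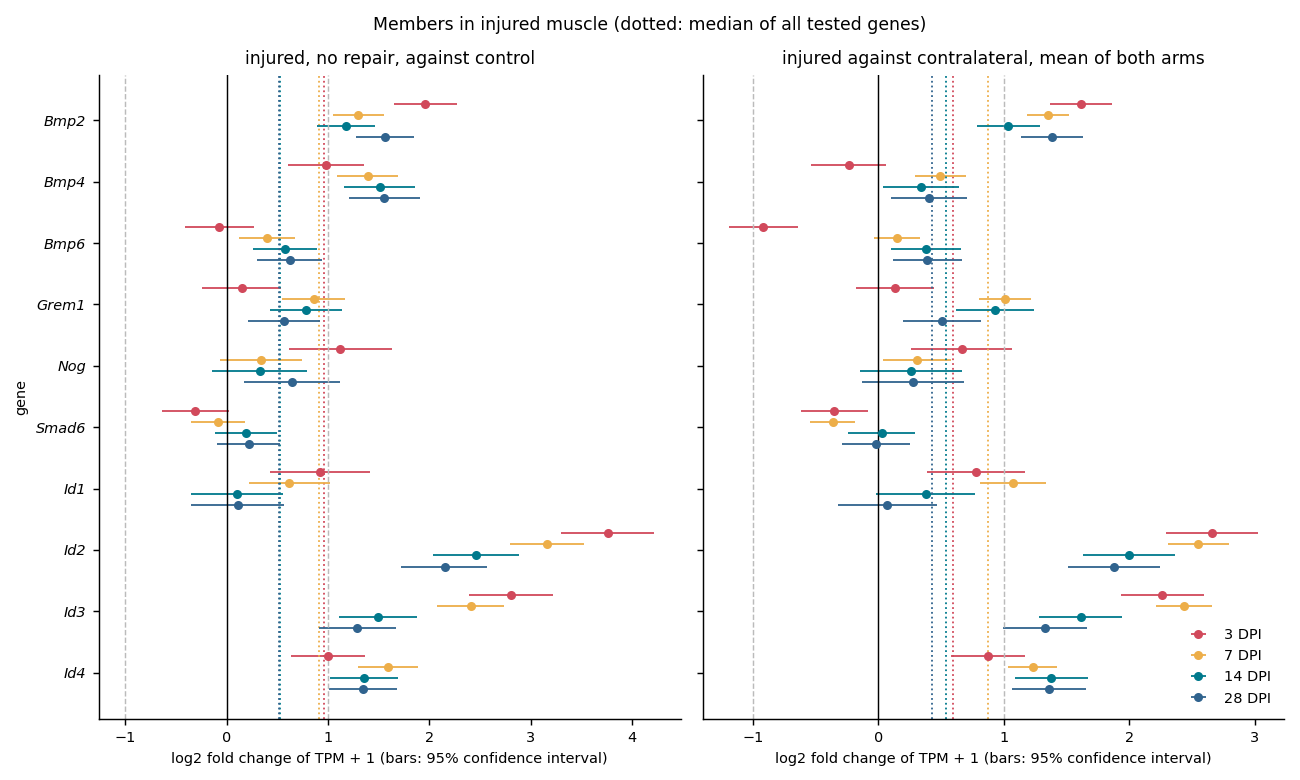
Change on the log2(TPM + 1) scale of the 10 genes at 3, 7, 14 and 28 DPI, for non-repaired injured muscle against control (left) and injured against contralateral muscle, mean of both arms (right); bars are 95% confidence intervals, dashed lines the fold limit and dotted lines the median of all tested genes on that day. Id2, Id3 and Bmp2 lie right of the limit in both panels, while Bmp4 does so in the left one at 7, 14 and 28 DPI and on no day in the right one.

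Legs of the same rat were set side by side in the 34 rats with both muscles (8, 14, 8 and 4 rats in order of day, running rats included). The injured leg was higher in 34 of 34 rats for Bmp2, Grem1, Id1, Id2, Id3 and Id4. The difference on the log2(TPM + 1) scale had a median of 2.34 for Id2 (lowest 1.31, highest 3.46), 2.11 for Id3, 1.29 for Bmp2, 1.14 for Id4, 0.83 for Id1 and 0.63 for Grem1. How many of all genes were higher in 34 of 34 rats was not computed. The all-gene median against contralateral muscle in non-running rats was 0.60, 0.87, 0.54 and 0.43 in order of day, on TPM as deposited. With size factors the group change of Id1 was positive in 2 of 8 comparisons with control or contralateral muscle. Nog was higher in the injured leg of 28 rats and Bmp4 in 27, of which 3 of 8 at 3 DPI and 12 of 12 at 14 and 28 DPI. Bmp6 was higher in the injured leg of 0 of 8 rats at 3 DPI and 8 of 8 at 14 DPI, and Smad6 in 1 of 8 at 3 DPI, 0 of 14 at 7 DPI and 7 of 8 at 14 DPI.

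**Figure D4:**
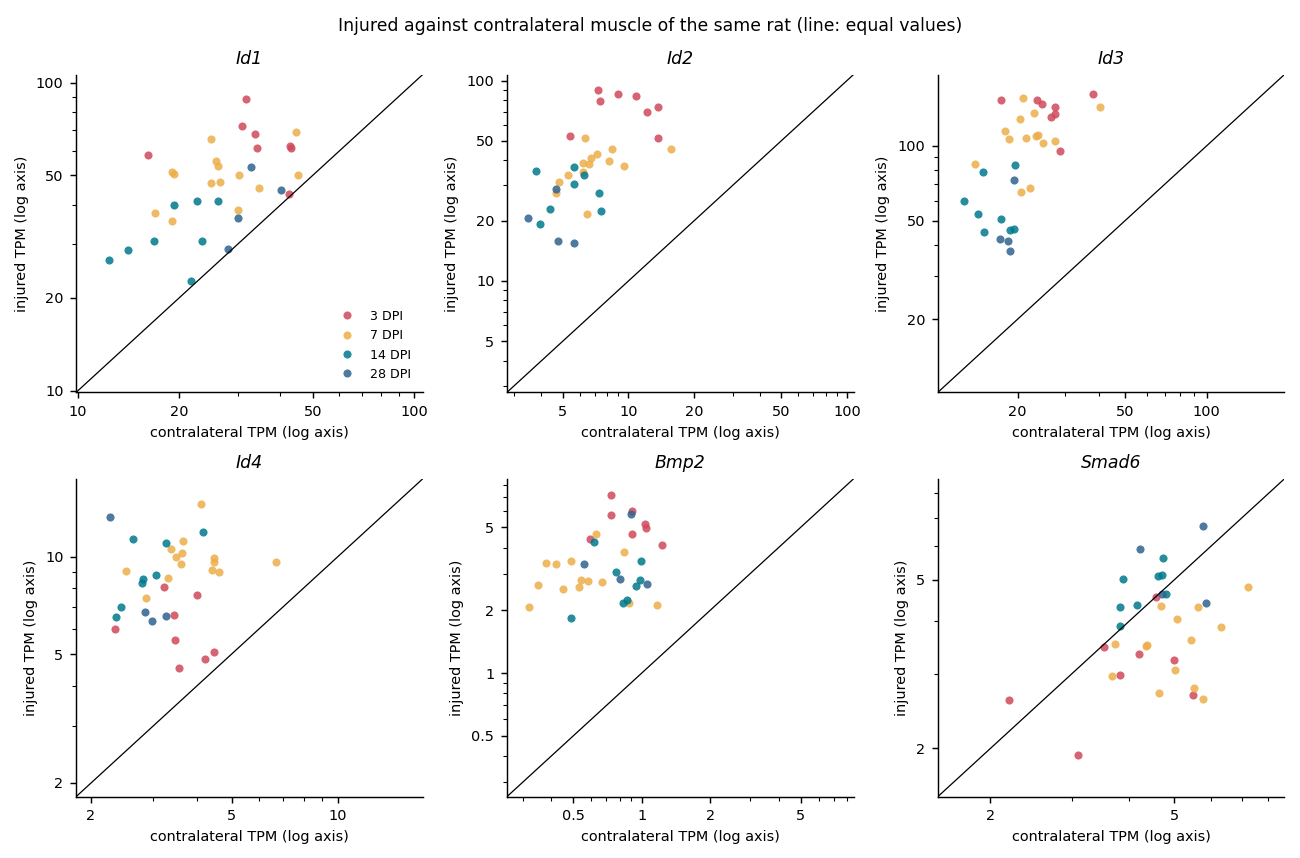
Injured against contralateral TPM of the same rat (log axes) for Id1, Id2, Id3, Id4, Bmp2 and Smad6; each point is 1 of 34 rats, coloured by day, and the line marks equal values. All points lie above the line except for Smad6, where 24 of 34 rats lie on or below it. TPM is as deposited, a scale on which the median of all tested genes was also higher in injured muscle.

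Contralateral muscle itself was compared with control, to see what the uninjured leg of operated rats shared with the injury. Of the 10 genes, 1 was called, Bmp4, where 1.39% of all genes were called. The 22 contralateral muscles held 2.48 to 7.27 TPM of Bmp4 (median 4.38), and only the highest control muscle, at 3.08 TPM, reached that range. The change was 1.11 ± 0.14 (adjusted p = 3.33e-09). Without control replicate 4, the muscle with the lowest Bmp4 (0.75 TPM) and with the fewest symbols above 1 TPM among the libraries kept (7866), it was 0.91 and no longer past the fold limit. Id2 had 0.78 ± 0.17 (adjusted p = 3.3e-04) and Bmp6 0.40 ± 0.13 (adjusted p = 0.0132), both under the limit, and the other 7 genes had adjusted p values of 0.0554 or more. In this comparison 7 of 8 fibroblast and 4 of 8 macrophage markers were also called higher, with summed levels of 285 to 1383 and 59 to 235.7 TPM in contralateral muscle, and their part in the Bmp4 value was not tested.

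The minced graft asks whether repair alters these genes in the defect. None of the 10 was called on any day, where 0.00883, 0.0883, 0.0265 and 0% of all genes were called at 3, 7, 14 and 28 DPI. The value with an adjusted p under 0.05 was that of Id3 at 7 DPI, where grafted muscles ran from 106.85 to 203.23 TPM (median 132.2, 8 muscles) and non-repaired muscles from 65.41 to 130.69 TPM. The groups overlapped, and the change was 0.50 ± 0.14 (95% confidence interval 0.23 to 0.77, adjusted p = 0.0145). Id2 was higher in grafted muscle by 0.27 to 0.40 and Bmp2 by 0.19 to 0.31 over the 4 days, with adjusted p values of 0.157 or more. At an unadjusted p under 0.05 there were 2, 4, 1 and 1 of the 10 genes in order of day, beside 1957, 3064, 593 and 141 of all 11328 tested genes. Grafted and non-repaired muscles did not overlap for Id1 at 3 DPI (0.35 ± 0.22, adjusted p = 0.388) and Id2 at 14 DPI (0.27 ± 0.21, adjusted p = 0.73). Neither passed the test, and how many of all genes did not overlap was not computed, so no graft effect is read from this. Over the 4 days the changes of the 10 genes ran from -0.20 to 0.50, and their 95% confidence intervals from -0.59 to 0.82.

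Running was compared within injured muscle, as the mean of the repaired and non-repaired arms, and within contralateral muscle. None of the 10 was called in injured muscle, where 0.0177, 0, 0 and 0.309% of all genes were called at 3, 7, 14 and 28 DPI, nor in contralateral muscle (0%). At an unadjusted p under 0.05 there were 1, 2, 1, 1 and 2 of the 10 genes, beside 1815, 1786, 586, 1553 and 1260 of all 11328 tested genes. The value with the lowest adjusted p was that of Bmp2 at 28 DPI, -0.39 ± 0.13 (adjusted p = 0.0932): running rats held 2.0 and 2.65 TPM without repair and 2.39 and 3.61 TPM with a graft, against 2.66 to 3.89 and 3.26 to 5.82 TPM in rats that did not run. The 28 DPI comparison rests on 2 running muscles per arm. Id2 in running rats was higher by 0.41 ± 0.15 at 14 DPI (adjusted p = 0.76), and Id4 lower by 0.28 ± 0.11 at 3 DPI (adjusted p = 0.161).

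**Figure D5:**
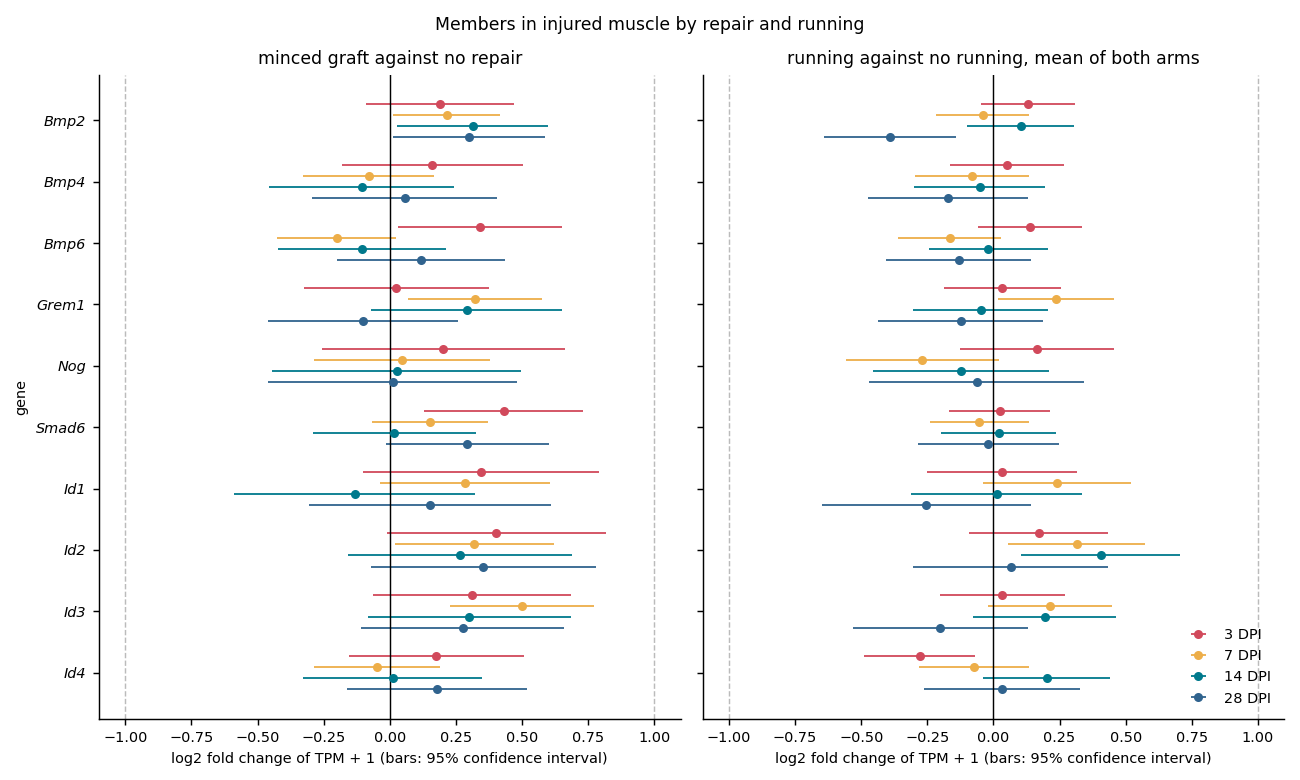
Change on the log2(TPM + 1) scale of the 10 genes in injured muscle at 3, 7, 14 and 28 DPI for minced graft against no repair (left) and running against no running, mean of both arms (right); bars are 95% confidence intervals and dashed lines the fold limit. No point reaches the limit of 1 in either panel, and Id3 at 7 DPI is the highest point on the left, at 0.50.

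Over time in non-repaired injured muscle, none of the 10 was called from 3 to 7 DPI (7.34% of all genes were), from 7 to 14 DPI (6.82%) or from 14 to 28 DPI (0.459%), and Id2 and Id3 were called lower from 3 to 28 DPI (28.8%). These shares of all genes count calls in either direction. By unadjusted p under 0.05 the counts were 8, 4, 1 and 8 of 10, beside 5357, 8304, 1564 and 8090 of all 11328 tested genes. From 3 to 7 DPI Bmp2 and Nog had -0.66 and -0.78, and Grem1 and Id4 had 0.71 and 0.59, all with an adjusted p of 0.00393 or less. Id1, Id2 and Id3 had -0.52, -0.70 and -0.91 from 7 to 14 DPI. From 3 to 28 DPI Bmp4, Bmp6 and Smad6 had 0.58, 0.70 and 0.53 (largest adjusted p = 0.00536), in the opposite direction to Id1 (-0.81). With size factors, Bmp6 passed the fold limit in that comparison, at 1.01.

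The profiles of the members differed across the 114 muscles. On log2(TPM + 1), Pearson's r was 0.97 between Id2 and Id3, 0.90 between Bmp2 and Id2, 0.85 between Id1 and Id3 and 0.79 between Id1 and Id2. It was 0.68 between Id2 and Id4, 0.68 between Grem1 and Id4, and -0.32 between Smad6 and Id2. These muscles fall into injured and uninjured groups and include 34 pairs from single rats, so r includes the difference between those groups, and r within groups was not computed. The tested genes most like each member by r were Anxa1 (0.99), S100a10 and Gng10 for Id2, Gng10 (0.99), Pgrmc1 and Hmgn1 for Id3, and Klf2 (0.92), Klf4 and Gpr4 for Id1. They were Ctxn3 (0.90), Cilp and Sec1 for Id4, Card6 (0.95) and Slc43a2 for Bmp2, and Cdh16 (0.84), Sqrdl and Csgalnact2 for Nog. For Bmp4 (Entpd2 0.76, then Aox1 and Tnxa-ps1), Bmp6 (Sp4 0.69, then Slc12a2 and Clasp2) and Smad6 (LOC100910558 0.59, then Eml1 and Ptprm) the best matches were looser.

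The rest of the pathway was read from a list of 64 other genes, of which 55 were in the table and 44 were tested. Against control, 21 of the 44 were called higher and 1 lower at 3 DPI, 26 and 1 at 7 DPI, 16 and 1 at 14 DPI, and 13 and 0 at 28 DPI, beside 48.3, 45.6, 25 and 21.1% of all tested genes called higher. The share of the list at 3 DPI was close to that of all genes. The median change over the 44 genes was 0.90, 1.11, 0.75 and 0.69, beside the all-gene medians given above. Against contralateral muscle 14, 24, 17 and 9 were called higher and 2, 1, 1 and 0 lower, beside 34.8, 43.8, 23.4 and 16% of all genes called higher, which is above the share of the list at 3 DPI.

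Follistatin-like 1 (Fstl1), a secreted glycoprotein, rose by 4.35 ± 0.28, 4.88 ± 0.23, 4.11 ± 0.26 and 3.29 ± 0.26 against control. The ligand trap chordin (Chrd) had 3.76, 3.97, 2.71 and 2.75, and Bmp1, a metalloprotease that cleaves chordin and procollagens and is no ligand despite its name, had 3.61, 4.38, 3.40 and 2.82. The activin antagonist follistatin (Fst) had 2.90 ± 0.23 at 28 DPI. Against contralateral muscle the leading genes were Chrd (3.10), Fstl1 (2.82) and Runx2 (2.38) at 3 DPI, Fstl1 (4.15), Bmp1 (3.82) and Chrd (3.78) at 7 DPI, Fstl1 (3.32), Bmp1 (2.77) and Chrd (2.60) at 14 DPI, and Chrd (2.66), Fst (2.63) and Fstl1 (2.57) at 28 DPI. Of 12 tested antagonists and modulators, 5, 7, 6 and 5 were called higher and none lower, a share below that of all genes at 3 DPI and above it on later days. Fstl1 was also the pathway gene called in contralateral muscle against control, at 1.08 ± 0.20 (adjusted p = 5e-05).

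Of 6 tested other ligands, a list that here includes Bmp1, 3 were called higher against control on each day. That share was near that of all genes at 3 and 7 DPI and above it at 14 and 28 DPI. Against contralateral muscle 2, 3, 2 and 3 of the 6 were called higher. Of 10 receptors and coreceptors, 3, 4, 1 and 1 were called higher against control, a share below that of all genes on each day. Hemojuvelin (Hfe2), a BMP coreceptor made by muscle fibres, was called lower at 3, 7 and 14 DPI (-2.24, -1.62 and -1.27). Of 7 Smads and their regulators 4, 5, 1 and 1 were called higher, a share above that of all genes at 3 and 7 DPI and below it at 14 and 28 DPI, Smad1 among them on every day (1.77, 1.87, 1.29 and 1.14), whereas the other inhibitory Smad, Smad7, had -0.09, -0.14, -0.24 and -0.10. Of 6 tested further targets 3, 4, 2 and 1 were called higher, beside the shares of all genes given above, among them the bone regulator Runx2 (2.48, 2.35 and 1.19 at 3, 7 and 14 DPI).

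The called genes with the smallest rises against control were the receptor Bmpr2 (1.21) and the ubiquitin ligase Smurf2 (1.13) at 3 DPI, the ligand Bmp3 (1.07) and Smurf2 (1.06) at 7 DPI, Runx2 and Tcf3 at 14 DPI, and Tcf12, Smad1 and the endothelial receptor Acvrl1 (1.06) at 28 DPI. Against contralateral muscle they were the homeobox gene Msx1 (1.02) at 3 DPI, the ligands Bmp5 (1.02) and Gdf3 (1.01) at 7 DPI, Acvrl1 (1.04) and its coreceptor Eng (1.03) at 14 DPI, and the antagonists Chrdl1 (1.19) and Sostdc1 (1.00) with Bmp5 (1.10) at 28 DPI. The receptor Acvr2b was called lower at 3 DPI against contralateral muscle (-1.13), as was Hfe2 at 3, 7 and 14 DPI (-2.34, -1.37 and -1.06).

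The E-proteins that Id proteins bind were measured as well. Tcf3, Tcf4 and Tcf12 were all called higher at 3, 7 and 14 DPI against control, with 2.01, 2.0 and 1.76 at 3 DPI, and Tcf4 and Tcf12 at 28 DPI (1.35 and 1.17). Against contralateral muscle all 3 were called at 3, 7 and 14 DPI and none at 28 DPI. On both references their changes at 3 DPI were smaller than those of Id2 and Id3 and larger than those of Id1 and Id4. Against contralateral muscle they were 1.39, 1.32 and 1.30, beside 2.66 for Id2. These differences between genes were not tested.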

How the data were processed

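The authors quantified 76-base paired-end reads against an annotated rat genome with Kallisto and deposited the TPM of each gene symbol in a summary table. The TPM values were used as they stand, and no counts were used. The depth of single libraries is not given in the sources used here, so depth per library is unknown. The table used here ends within the letter T, and its incomplete last entry was dropped. Of 138 libraries, 9 had no clear group and 13 had fewer than 7000 symbols above 1 TPM (901 to 5712) and were left out, which lost 2 muscles. Kept libraries had 7866 to 10948. Libraries of one muscle were averaged, which concerned 2 muscles.

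Groups were compared with limma 3.58.1 (R 4.3.3) on log2(TPM + 1), in a single model over 114 muscles of 31 groups, with 83 residual degrees of freedom, an intensity trend and Benjamini-Hochberg adjustment over 11328 genes. Genes needed a group mean above 1 TPM. The fit was tested on simulated data. P values are two-sided and measure the spread between muscles, of which control muscles come in pairs from 2 rats. Tables and figures used Python 3.11.15 with numpy 2.4.6, pandas 2.3.3 and matplotlib 3.10.9.

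The text names the 10 members, the 3 highest and 3 lowest called genes of a fixed pathway list per comparison, the 3 genes most like each member with a mean above 1 TPM (1 of them is not reported here), and marker lists. Smad7, and values of pathway genes on days when they did not rank there, were chosen after they were seen. Members and lists were chosen with earlier results of these data known. Promoters came from RefSeq on GRCr8, a later build than that used for the TPM table.

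Muscles of one rat were not blocked, and a random block for the rat, with statmod 1.5.0, was an alternative. Among 34 same-rat pairs the deviations from group means had a mean correlation of 0.09, with 15 pairs above 0.1.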

Additional observations from a re-analysis of the deposited data

Results flagged for a closer look

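Single muscles that stood apart within their group were found in 13 of 159 sets of 4 to 8 muscles (one gene in one group), by Dixon's test at the 95% level, which picks about 1 in 20 groups by chance. Replicate 3 of the running, non-repaired muscles at 7 DPI stood apart for 3 genes, with Grem1 at 2.49 TPM (next 1.10), Id1 at 114.4 TPM (next 58.1) and Id3 at 177.8 TPM (next 116.5). Control replicate 4 had Id3 at 9.77 TPM, below the next control muscle at 19.8 TPM. Id1 was at 100.6 TPM in replicate 3 of the grafted muscles at 7 DPI (next 65.3). Id2 was at 28.6 TPM in replicate 2 of the grafted muscles at 28 DPI (next 20.6), at 21.6 TPM in replicate 4 of the non-repaired muscles at 28 DPI (next 16.5) and at 19.3 TPM in replicate 2 of the non-repaired muscles at 14 DPI (next 22.2).

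Grem1 was at 2.35 TPM in replicate 2 of the grafted muscles at 14 DPI (next 0.93), at 2.36 TPM in replicate 2 of the running grafted muscles at 14 DPI (next 0.78) and at 0.49 TPM in replicate 1 of the running non-repaired muscles at 3 DPI (next 0.13). Bmp4 was at 7.29 TPM in replicate 3 of the running grafted muscles at 7 DPI (next 4.81), and at 3.65 TPM in replicate 3 of the running grafted muscles at 14 DPI (next 5.87).

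Within rats, the injured minus contralateral difference on the log2(TPM + 1) scale took opposite signs in different arms for 4 genes, with every rat of an arm on one side. None of these differences between arms was tested, and most arms hold 2 rats. Bmp4 at 3 DPI had a mean of 0.35 in the running grafted arm, -0.27 in the non-running and -0.47 in the running non-repaired arm. Bmp6 at 7 DPI had 0.33 in the non-running non-repaired arm (4 rats) and -0.44 in the running grafted arm. Nog at 7 DPI had 0.44 in the non-running grafted arm (6 rats) and -0.22 in the running grafted arm. Smad6 at 28 DPI had 0.30 in the grafted and -0.18 in the non-repaired arm of non-running rats.

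The 9 libraries that entered no comparison held values above the highest control muscle for 9 of the 10 genes. The highest of these libraries was at 3.76 TPM for Bmp2 (7 of 9 libraries above the highest control muscle), 6.82 for Bmp4 (8 of 9), 4.5 for Bmp6 (3 of 9), 0.30 for Grem1 (4 of 9), 3.66 for Nog (3 of 9) and 5.54 for Smad6 (5 of 9). For Id2 it was at 26.6 TPM (8 of 9), for Id3 at 49.2 (5 of 9) and for Id4 at 10.1 (5 of 9).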

How the results depend on the processing

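Blocking on the rat as a random effect, to use the pairing of both legs, changed none of the 22 counts of members called and took no member value across the threshold, and gave the counts of 4 and 5 against control at 3 and 7 DPI again. The same held with no filter on low values, with both control muscles of a rat averaged, with each library as its own sample, and without the intensity trend. Without rat 011, whose libraries carry different days, the 22 counts stayed within 1.5 times and Grem1 at 7 DPI against contralateral muscle lost its call (0.97).

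Counts of members called depended on the fold limit, the pseudocount and the scaling. With no fold limit they were 7, 8 and 8 against control at 3, 7 and 28 DPI, 8, 7 and 7 against contralateral muscle at 3, 14 and 28 DPI, 3 for contralateral against control, 1 for the graft at 7 DPI (Id3), and 7, 3 and 7 for 7 against 3, 14 against 7 and 28 against 3 DPI. With a pseudocount of 0.1 they were 7 against control at 3 DPI, 5 against contralateral muscle at 3 DPI and 1 for 7 against 3 DPI (Grem1, 2.05). With size factors they were 2, 2 and 3 against control at 7, 14 and 28 DPI and 3, 1 and 2 against contralateral muscle at 7, 14 and 28 DPI. With low-complexity libraries kept, 1 member was called for 7 against 3 DPI (Nog, -1.02), and Grem1 against contralateral muscle at 7 DPI lost its call (0.93). The cause was not tested. Leaving out 1 muscle at a time gave 3 to 7 against control at 3 DPI, with 7 without non-repaired replicate 3 of that day, and 0 to 1 for contralateral against control, with 0 without control replicate 4.

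Size factors turned the sign of Id1 against control (-0.20, -0.44, -0.57 and -0.55 at 3, 7, 14 and 28 DPI), Nog at 7 and 14 DPI (-0.41 and -0.14), Bmp6 at 7 DPI (-0.39) and Smad6 at 14 and 28 DPI (-0.38 and -0.34). Against contralateral muscle at 7, 14 and 28 DPI they gave -0.35, -0.24 and -0.058 for Bmp4, -0.61, -0.15 and -0.028 for Bmp6 and -0.42, -0.23 and -0.13 for Nog. At 14 DPI they gave -0.55 for Smad6 and -0.29 for Id1, and at 28 DPI -0.45 for Id1. For contralateral against control they gave -0.007 for Id4. A covariate for blocks of consecutive rat numbers gave -0.001 for Nog against control at 14 DPI and 0.017 for Id1 in contralateral against control, and took the calls of Bmp2 against control at 14 DPI (0.94) and Grem1 against contralateral muscle at 7 DPI (0.92), while Grem1 against control at 14 DPI gained one (1.04). This covariate could not be told apart from the day at 28 DPI, where all muscles fell in the same range.

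Values near 0 changed sign when a muscle was left out. The ranges against control were -0.22 to 0.13 for Bmp6 at 3 DPI, -0.16 to 0.015 for Smad6 at 7 DPI, and -0.084 to 0.24 and -0.076 to 0.25 for Id1 at 14 and 28 DPI. Against contralateral muscle they were -0.042 to 0.093 and -0.11 to 0.076 for Smad6 at 14 and 28 DPI and -0.057 to 0.20 for Id1 at 28 DPI. For contralateral against control they were -0.24 to 0.086 for Id1 and -0.057 to 0.28 for Id4. None of these values had passed the test. Of the refitted member values, 1387 kept direction and side, 20 changed sign, 11 gained and 10 lost a call. Without counts, low values such as those of Grem1 carry no counting error here.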

Other observations

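Of the 9 libraries without a group, 8 came from running rats at 28 DPI whose title and label name opposite muscles. Of these, the 4 titled as injured held Id2 at 4.97, 5.06, 3.26 and 7.15 TPM and Bmp2 at 0.91, 0.31, 0.57 and 0.80 TPM. The 4 titled as control held Id2 at 15.06, 15.16, 14.25 and 26.58 TPM and Bmp2 at 1.96, 3.12, 3.76 and 3.58 TPM. Grem1 was listed at 0 in the first 4 and at 0.11, 0.19, 0.21 and 0.30 TPM in the others. Each set is given by its titles only, and neither was assigned to a muscle. The remaining library, of a contralateral muscle whose labels carry another day than its rat's other libraries, held Id2 at 9.94 TPM and Bmp2 at 0.89 TPM.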
